A study of Microtus ochrogaster with 40 samples.

Results

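A set of 10 genes that astrocytes use for transport and signalling were followed through nuclear RNA of the prairie vole nucleus accumbens. They were chosen by gene symbol, and 9 of the 10 were matched among the 19130 genes listed: Slc1a2, Slc1a3, Gja1, Slc7a10, Slc7a11, Agt, Aqp4, Ntsr2 and Gfap. Glul was not analysed here. The libraries came from 40 animals, 1 library each, kept for 16 days with a partner of the opposite sex (mate) or of the same sex (peer). With a mate lived 11 of the females and 11 of the males, and with a peer 8 females and 10 males. The labels name no transgene, drug, age or batch, and they do not say which animals lived together, so animals of a couple may not be independent. The tissue was taken as punches, nuclei were isolated on an iodixanol gradient and single nuclei were captured in droplets.

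Astrocytes clear glutamate from synapses with the transporters encoded by Slc1a2 (GLT-1) and Slc1a3 (GLAST). They exchange other amino acids through Slc7a10, which carries serine and glycine, and Slc7a11, which takes up cystine and releases glutamate. Gja1 encodes connexin 43, which joins astrocytes by gap junctions, and Aqp4 the water channel of the endfeet around vessels. Agt encodes angiotensinogen, the precursor of angiotensins, which in the brain is made mainly by astrocytes. Ntsr2 is a neurotensin receptor, and Gfap is the intermediate filament protein of fibrous and reactive astrocytes. The comparisons address where these genes were found, whether they were found in the same astrocyte nuclei, and whether their levels go with pairing type or sex.

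After filtering, 178387 nuclei of 194518 barcodes were kept, between 1767 and 7666 per library. Of the barcode sequences, 21545 occurred in more than 1 library, and no 2 libraries shared over 2.22% of the smaller one's barcodes. Clustering without the 9 genes gave 32 clusters. Of these, 22 fell into 13 classes named by other marker genes, and 10 clusters with 23493 nuclei stayed unnamed. Astrocyte-like nuclei were 1 cluster of 18309 nuclei (10.3%), in which all 12 astrocyte markers used were raised, among them Aldoc, Fgfr3 and Sox9. They were shallow, with a median of 777 unique molecular identifiers (UMIs, 1 per captured RNA molecule) each. Male mate 2, the shallowest library with a median of 653 UMIs per nucleus, had 14 astrocyte-like nuclei. It stayed out, since classes with under 20 nuclei in an animal were not used. The other 39 animals had between 128 and 848 astrocyte-like nuclei and 128802 to 648051 UMIs in them. Levels are UMI counts summed over the nuclei of a class in an animal and scaled to the class's total UMIs there (CPM). They are compared between classes and animals, not between genes.

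All 9 genes were higher in astrocyte-like nuclei than in any of the 12 other named classes, by between 5.45-fold for Gfap and 42.7-fold for Slc7a10 over the next class. Clusters are made from the same nuclei, so this and the other class levels are descriptions without a test. The SDs are between animals, and classes share animals, so SDs do not measure the spread of a class difference within animals. Slc1a2 stood at 13805 CPM ± 1467 (SD, n = 39 animals) in astrocyte-like nuclei. It stood at 789 CPM ± 330 (n = 31) in vascular-like and at 779 CPM ± 145 (n = 40) in glutamate neuron-like nuclei, means closer together than either SD. Oligodendrocyte precursor-like nuclei came next for Slc1a2, with 509 CPM ± 96.6. D2 and D1 medium spiny neuron-like nuclei, the projection neurons of the striatum, held 222 CPM ± 32.7 and 188 CPM ± 37.7. In glutamate neuron-like nuclei the Slc1a2 level was 5.64% of that in astrocyte-like nuclei, while the levels of the other 8 genes were between 0.217% (Slc7a10) and 2.17% (Gfap) of theirs. After each nucleus was thinned to 1000 UMIs, 45.4% of glutamate neuron-like nuclei had a Slc1a2 UMI, against 16.0% of D1 medium spiny neuron-like nuclei. Before thinning the shares were 60.3% and 31.2%, with median depths of 2004 and 2108 UMIs. The shares of the other 8 genes were also higher in the glutamate neuron-like class at 1000 UMIs, though low in both classes. Ntsr2 was found in 0.959% and 0.333% of nuclei, and Slc1a3 in 4.51% and 3.1%.

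For Slc1a3, 4 non-neuronal classes came next. It stood at 9180 CPM ± 1456 in astrocyte-like nuclei, 546 CPM ± 316 in microglia-like, 406 CPM ± 97.1 in oligodendrocyte-like, 334 CPM ± 144 in vascular-like and 314 CPM ± 98.8 in oligodendrocyte precursor-like nuclei. Neighbours among these 4 lower classes lay no further apart than the larger of their SDs. The 7 neuron-like classes and the differentiating oligodendrocyte-like class were lower, from 95.2 CPM ± 70.4 in parvalbumin interneuron-like nuclei to 36.2 CPM ± 11.4 in D1 medium spiny neuron-like ones. After thinning to 1000 UMIs, 28.0% of oligodendrocyte-like and 3.1% of D1 medium spiny neuron-like nuclei had a Slc1a3 UMI, and unthinned the shares were 24.9% and 6.86%. The median depths were 660 and 2108 UMIs.

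Agt followed a different order. After astrocyte-like nuclei with 3061 CPM ± 1048 came vascular-like nuclei with 102 CPM ± 66.7 and oligodendrocyte-like nuclei with 76.6 CPM ± 36.1. Microglia-like nuclei held 52.3 CPM ± 70.0 of Agt and differentiating oligodendrocyte-like nuclei 46.8 CPM ± 34.6 (n = 12). Oligodendrocyte precursor-like nuclei stood at 29.6 CPM ± 20.4. The 7 neuron-like classes stood between 19.7 CPM ± 26.6 for parvalbumin interneuron-like and 10.2 CPM ± 4.07 for D1 medium spiny neuron-like nuclei. Below astrocyte-like nuclei, no 2 neighbours in this order lay further apart than the larger of their SDs. Classes further apart in the order could still be separate. Single animals held 22.4 to 196 CPM in oligodendrocyte-like and 0 to 22.0 CPM in D1 medium spiny neuron-like nuclei. In oligodendrocyte-like nuclei Agt was at 2.50% of its astrocyte-like level, below Slc1a3 at 4.42% and near Gfap at 2.09%, and the other 6 genes were between 0.281% (Slc7a10) and 1.09% (Slc1a2) of theirs. At 1000 UMIs an Agt UMI was found in 7.52% of oligodendrocyte-like and 0.968% of D1 medium spiny neuron-like nuclei, and unthinned in 5.60% and 2.35%. Only 1861 of 12189 oligodendrocyte-like nuclei reached that depth.

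Ntsr2 and Slc7a10 shared 1 second class, the oligodendrocyte precursor-like nuclei. Ntsr2 stood at 139 CPM ± 111 there, 7.40% of the 1875 CPM ± 492 in astrocyte-like nuclei, while oligodendrocyte-like nuclei held 8.22 CPM ± 9.84. The animals differed widely, from 0 to 519 CPM with a median of 106 CPM. At 1000 UMIs, 10.8% of oligodendrocyte precursor-like nuclei had an Ntsr2 UMI, against 0.333% of D1 medium spiny neuron-like nuclei, and unthinned the shares were 10.2% and 0.830%. Slc7a10 stood at 53.4 CPM ± 31.6 in the precursor-like class, 2.34% of its astrocyte-like 2279 CPM ± 313. In the same nuclei Gfap, Slc1a2 and Slc1a3 stood at 3.91%, 3.69% and 3.42% of their astrocyte-like levels, and the other 4 genes between 0.566% (Gja1) and 0.965% (Agt). For the remaining genes the vascular-like class was second, with 200 CPM ± 96.0 of Gja1, 84.9 CPM ± 79.4 of Slc7a11, 52.2 CPM ± 43.4 of Aqp4 and 18.3 CPM ± 37.2 of Gfap (n = 31 animals with at least 20 such nuclei). In the 8 animals with at least 50 vascular-like nuclei Slc7a11 was lower, at 53.0 CPM ± 20.9. The corresponding astrocyte-like levels were 5057 CPM ± 1160, 1609 CPM ± 252, 1160 CPM ± 257 and 99.9 CPM ± 58.9.

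**Figure D1:**
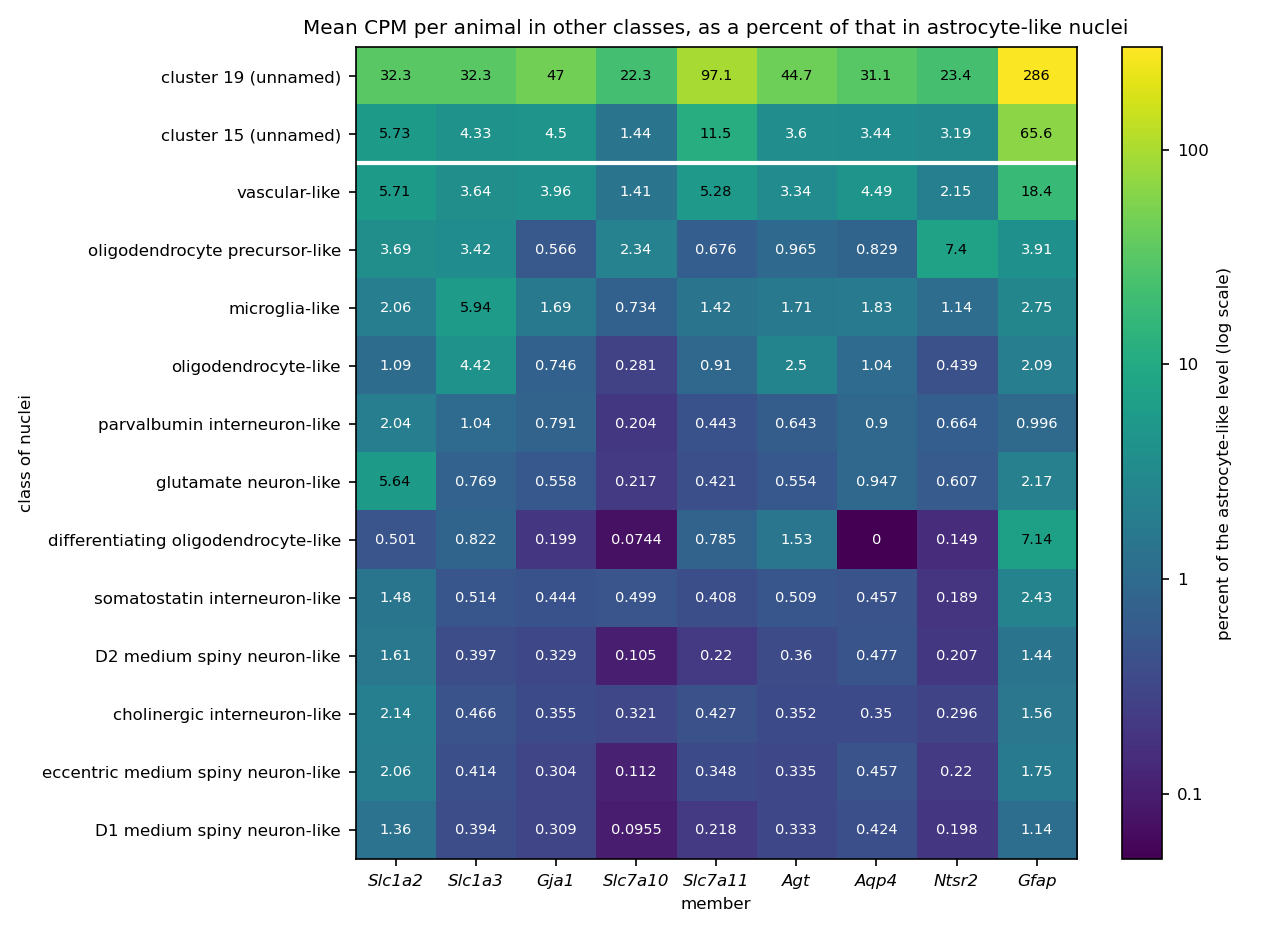
Level of each gene (columns) in 2 unnamed clusters and in the 12 other named classes (rows), as a percent of its level in astrocyte-like nuclei, from means over animals, with colour on a log scale. Among neuron-like classes the highest value is Slc1a2 in glutamate neuron-like nuclei (5.64%), Ntsr2 reaches 7.40% in oligodendrocyte precursor-like nuclei, and Gfap reaches 286% in cluster 19.

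Gfap was above its astrocyte-like level in the unnamed cluster 19 and below it in the unnamed cluster 15. Cluster 19, with 2514 nuclei and a median of 615 UMIs, carried markers of both ependymal cells (the ciliated lining of the ventricles) and astrocytes, and was led by Cfap43. Its Gfap level was 286 CPM ± 202 (SD, n = 36 animals), 286% of that in astrocyte-like nuclei. Gfap was also among its leading genes. Slc7a11 stood at 1562 CPM ± 590 there, 97.1% of the astrocyte-like level. The other 7 genes reached between 22.3% (Slc7a10) and 47.0% (Gja1) of theirs. Cluster 15, with 3833 nuclei, carried markers of dividing cells and of immature neurons and had Mki67 and Dlx1 among its leading genes. It held 65.5 CPM ± 43.1 of Gfap (n = 38), or 65.6% of the astrocyte-like level. Slc7a11 reached 11.5% there and the other 7 genes 1.44% to 5.73%.

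Within astrocyte-like nuclei the animals differed most in Gfap and Agt. The coefficient of variation over 39 animals was 59.0% for Gfap and 34.2% for Agt, where counting of independent UMIs alone would give 17.1% and 3.1%. Only 3.97% of astrocyte-like nuclei held a Gfap UMI before thinning. The counting figure leaves out the sampling of such nuclei, so it can be too low for Gfap. Slc1a2 was the steadiest, at 10.6% with 1.46% from counting. Slc7a10, Slc7a11 and Slc1a3 varied by 13.7%, 15.6% and 15.9%, and Aqp4, Gja1 and Ntsr2 by 22.2%, 22.9% and 26.2%. Over the 4872 genes of at least 50 CPM the median was 22.9%, with 17.0% from counting at their lower counts. The lowest Gfap level was 15.4 CPM in male mate 9 and the highest 208 CPM in female mate 2, from 4 or more UMIs in each animal. Agt lay between 1330 CPM in female mate 2 and 5718 CPM in male peer 7, a 4.30-fold range. Gja1 spanned 3.7-fold, from 2195 CPM in male mate 1 to 8120 CPM in female peer 6, and Slc1a2 spanned 1.53-fold.

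None of the 9 genes passed the test for pairing, sex or their interaction in astrocyte-like nuclei, in a fit of 7935 genes by edgeR's quasi-likelihood test with Benjamini-Hochberg adjustment. The background of that fit was equally low: 0% of genes were called for pairing, 0.0252% for sex and 0% for the interaction. At an unadjusted p under 0.05 stood 466 genes for pairing (5.87%), 380 for sex (4.79%) and 305 for the interaction (3.84%). Of the 9 genes, only Agt for pairing was among them. DESeq2 also called 0 for pairing and interaction, with 416 and 260 at an unadjusted p under 0.05. The 2 genes called for sex were Kdm5c and Kdm6a, which encode histone demethylases. They were higher in females by 0.68 (SE 0.0687, adjusted p = 3.44e-09) and 0.62 (SE 0.0774, adjusted p = 1.24e-06) on the log2 scale.

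Agt had the lowest p of the 9 genes for pairing. Its level was 1330, 2656 and 3555 CPM (lowest, median and highest) in female mates and 1995, 3066 and 4919 CPM in female peers. Male mates stood at 1545, 2741 and 5555 CPM and male peers at 2206, 3077 and 5718 CPM. The ranges overlapped in both sexes, and the medians were lower in mates than in peers in both. Mate minus peer was -0.35 on the log2 scale (SE 0.147, p = 0.0225, adjusted p = 0.82), which did not pass the adjustment. The pairing difference was -0.16 for Slc1a3 (SE 0.089), -0.16 for Gja1 (SE 0.117) and -0.17 for Ntsr2 (SE 0.125). It was -0.05 for Slc1a2 (SE 0.0726), 0.03 for Slc7a10 (SE 0.0771), -0.03 for Slc7a11 (SE 0.0798), -0.07 for Aqp4 (SE 0.107) and -0.14 for Gfap (SE 0.249). The median of the 9 was -0.14, against 0.00042 over all genes tested, and the adjusted p-values of the other 8 were 0.889 or higher by edgeR. For the interaction the largest difference among the 9 was -0.30 for Gja1 (SE 0.233), and for sex -0.17 for Agt (SE 0.147). Counts of the 9 lists of related genes were 0 called in each direction for pairing, sex and interaction.

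The share of nuclei with an Agt UMI was also lower in mates, short of the adjustment. In nuclei thinned to 1000 UMIs, in 37 animals with at least 20 such nuclei, Agt was found in 77.7% ± 11.8 (SD, n = 11) of nuclei in female mates and 88.8% ± 7.19 (n = 8) in female peers. In males it was 86.0% ± 8.35 (n = 9) in mates and 90.9% ± 6.38 (n = 9) in peers. Single animals lay between 55.4% and 100%. The difference between mates and peers was -8.00 percentage points (two-sided permutation p = 0.00917, adjusted p = 0.248 over 27 tests). At 500 UMIs, in 39 animals, it was -7.50 points (permutation p = 0.0318, adjusted p = 0.859). No test of the 27, over 9 genes and 3 contrasts, passed. For Gja1 the difference was -2.64 points (permutation p = 0.0213, adjusted p = 0.288).

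Library measures were set beside these levels. Of 27 correlations between the 9 genes and the median UMIs of astrocyte-like nuclei, the astrocyte-like share or the glutamate neuron-like share of a library, 0 passed. Pearson's r ran from -0.23 to 0.37, with a lowest adjusted permutation p of 0.358. The summed level of 10 neuronal genes in astrocyte-like nuclei overlapped between groups. Its ranges were 865 to 1529 CPM in female mates, 885 to 1551 in female peers, 868 to 1519 in male mates and 851 to 1837 CPM in male peers, with 0 of the 10 genes at 0 in any group. The medians were 1155, 984, 998 and 1038 CPM in the same order, higher in mates in females and lower in males. The summed level of the 12 astrocyte markers, none of them among the 9 genes, had medians of 9160 CPM in female mates, 10293 in female peers, 9450 in male mates and 9819 CPM in male peers. It ranged from 8065 to 10910, 9406 to 11565, 8249 to 10659 and 8428 to 10791 CPM, so the groups overlapped, and like Agt it had lower medians in mates than in peers in both sexes. The part of these levels in the Agt difference was not tested.

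**Figure D2:**
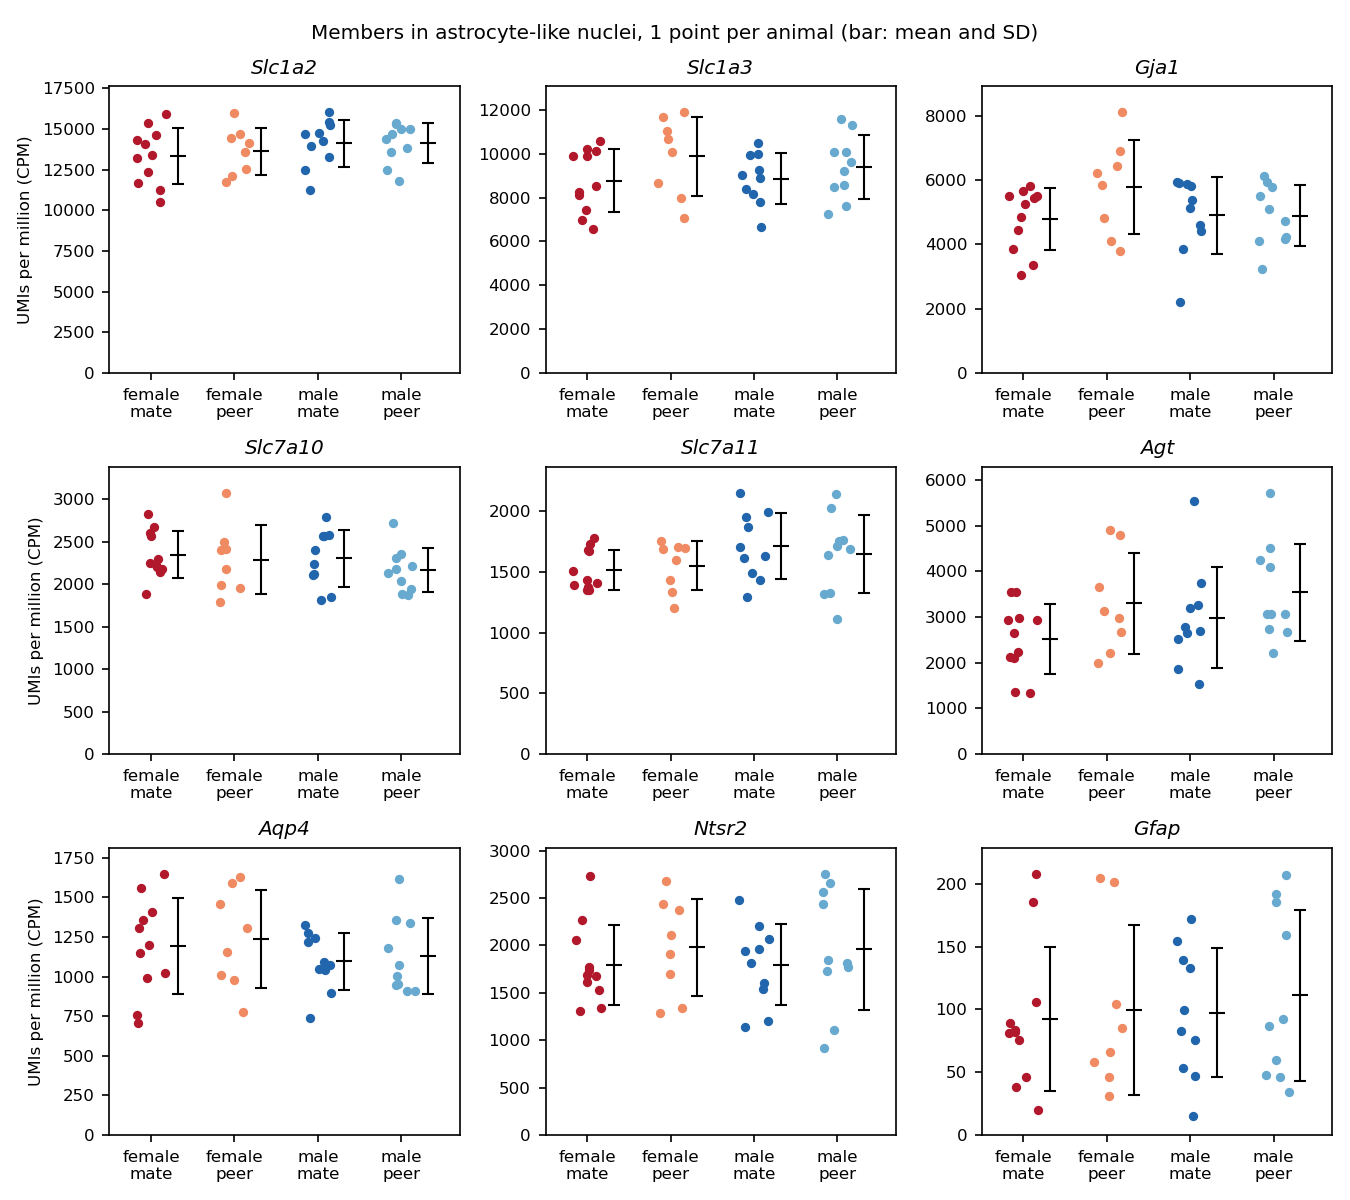
Level of each gene in astrocyte-like nuclei (CPM, linear axes from 0) by group, with 1 point per animal and the mean and SD beside them. The 4 groups overlap in every panel. Relative to its mean, Slc1a2 has the narrowest spread (10503 to 16028 CPM) and Gfap the widest (15.4 to 208 CPM).

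Across animals, the levels of Slc1a2, Slc1a3, Gja1 and Agt went together, and all 6 pairs among them passed. Of 36 pairs of the 9 genes, 9 had an adjusted permutation p under 0.05 over 39 animals, all with a positive r of 0.40 or more. This share of 25% was close to the background of abundant genes: of all 2346 pairs among the 69 genes of at least 1000 CPM, 27.5% had an r that high, and 2.43% of pairs among the 4872 genes of at least 50 CPM. A share this near the background is not read as a result about the 9 genes. The highest was Slc1a3 with Gja1, with r = 0.82 (rho = 0.80, adjusted permutation p = 0.00018 for both, from 1e-05, the smallest that the permutations can give), or 0.79 without the 2 farthest animals. Slc1a2 followed Slc1a3 with r = 0.71 (rho = 0.67, adjusted permutation p = 0.00018 for both), or 0.67 without the 2 farthest. Agt correlated with Slc1a2 at r = 0.58 (rho = 0.53, adjusted permutation p = 0.0009 and 0.00612) and at 0.44 without the 2 farthest animals. With Slc1a3 the r of Agt was 0.58 (rho = 0.54, adjusted permutation p = 0.00108 and 0.00528), or 0.49 without 2. With Gja1 it was 0.51 (rho = 0.50, adjusted permutation p = 0.00456 and 0.00786), or 0.48 without 2. Slc1a2 and Gja1 had r = 0.57 (rho = 0.52, adjusted permutation p = 0.0009 and 0.00612), or 0.53 without 2.

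The other 3 pairs that passed were weaker. Gja1 with Slc7a10 had r = 0.49 (rho = 0.41, adjusted permutation p = 0.0063 and 0.044), and 0.38 (adjusted permutation p = 0.0665) without the 2 farthest animals. Gja1 with Aqp4 had r = 0.51 (rho = 0.37, adjusted permutation p = 0.00514 and 0.0575) and 0.35 (adjusted permutation p = 0.0703) without them. Slc1a3 with Aqp4 had r = 0.40 (rho = 0.34, adjusted permutation p = 0.0491 and 0.0847), or 0.41 without 2. Subtracting group means kept all 9 pairs past the threshold. Agt and Slc7a10 showed an r of 0.00, and Gfap had an r between -0.12 and 0.20 with the other 8 genes.

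**Figure D3:**
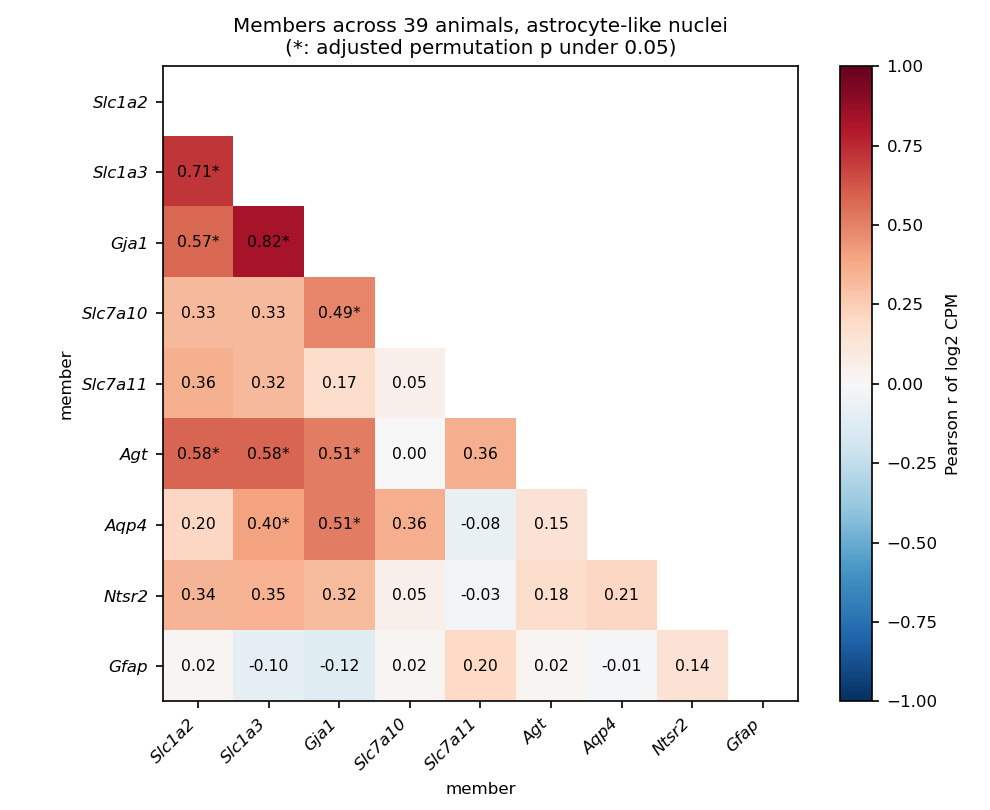
Pearson's r of log2 CPM in astrocyte-like nuclei for the 36 pairs of genes over 39 animals, where an asterisk marks an adjusted permutation p under 0.05. Slc1a2, Slc1a3, Gja1 and Agt form a block of positive values from 0.51 to 0.82, and the Gfap row lies between -0.12 and 0.20.

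The genes whose levels over the 39 animals were most like each of the 9 are given as a description, from 4871 genes of at least 50 CPM. For Slc1a3 they were Tm9sf2 (r = 0.87), a membrane protein of the secretory pathway, Lmbrd1 (0.86), a lysosomal protein of cobalamin export, and Degs1 (0.84), a desaturase of ceramide synthesis. Lmbrd1 (0.85) was also nearest to Slc1a2, followed by Rpn1 (0.78), a subunit of the oligosaccharyltransferase of the endoplasmic reticulum, and Serinc1 (0.76). Named genes nearest to Gja1 were Tm9sf2 (0.86) and Clu (0.84), the secreted chaperone clusterin. For Agt, Slc1a4 (0.73), a neutral amino acid transporter, and Tmem59 (0.73) came nearest among named genes. Slc7a10 was nearest to Slc38a3 (0.68), a glutamine transporter, Rpn2 (0.65) and Nkain4 (0.61). Slc7a11 reached 0.59 with Ctsz, 0.58 with Tmpo and 0.53 with Abhd6. Aqp4 reached 0.62 with Derl1, Ntsr2 reached 0.58 with Cdo1, 0.56 with Mfsd2a and 0.56 with Cyp2d22, and Gfap reached 0.62 with Tcf25, 0.59 with 2300009A05Rik and 0.57 with Whamm.

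Astrocyte-like nuclei were then split by Agt. Nuclei were thinned to a fixed number of UMIs, so that depth could not set the split, and those with at least 1 Agt UMI were called Agt-positive. At 1000 UMIs, 2863 of 3341 nuclei (85.7%) were Agt-positive. Only 5 animals had at least 20 nuclei in both states. In these, edgeR's quasi-likelihood test with the animal as a block called 4 of 1131 genes (0.354%), all higher in Agt-positive nuclei, and 0 of the 7 tested genes described here. The called genes were Gpm6a, a neuronal and glial membrane glycoprotein, Sparcl1, a secreted matrix protein that promotes synapses, Cst3, the secreted protease inhibitor cystatin C, and Apoe, the lipid carrier secreted by astrocytes. Their log2 folds were 0.42, 0.39, 0.32 and 0.32 (SE 0.102, 0.0767, 0.0794 and 0.0671, adjusted p = 0.0125, 0.000506, 0.0125 and 0.000999). These calls rest on few animals. Without female peer 3, female peer 4 or male peer 8 the count was 2, 0 and 1, and DESeq2 called 0, with 19 genes at an unadjusted p under 0.05. In the splits edgeR's SE and p rest largely on a spread shared over genes, so they do not measure a gene's spread between animals.

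Ntsr2 came nearest to a call at this depth. Its level in Agt-positive nuclei was 1885 CPM in female mate 1, 1781 in female mate 2, 2014 in female peer 3, 1464 in female peer 4 and 1727 in male peer 8. In Agt-negative nuclei it was 1477, 1517, 1912, 952 and 1159 CPM in the same order. All 5 animals were higher in the Agt-positive state, by a log2 fold of 0.37 (SE 0.116, adjusted p = 0.139 by edgeR).

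At 500 UMIs all 18309 astrocyte-like nuclei could be used, 12846 of them (70.2%) Agt-positive, and 39 animals entered the fit. The median depths before thinning were 776 UMIs in Agt-positive and 778 UMIs in Agt-negative nuclei. The fit called 93 of 2793 genes (3.33%), 74 higher (2.65%) and 19 lower (0.68%) in Agt-positive nuclei. Of the 7 tested genes described here, 4 rose: Gja1, Aqp4, Slc7a11 and Ntsr2. Slc1a2, Slc1a3 and Slc7a10 were not called, and Gfap was too low to be tested. The median log2 fold of the 7 was 0.09, against -0.009 over all genes tested. The 7 genes were all of at least 1000 CPM, and the share called among other genes so abundant was not counted. The 4 of 7 are therefore not read as a result about these genes. The sizes were small, and this depth was an alternative to the 1000 UMIs of the main design.

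Gja1 showed the clearest difference. In Agt-negative nuclei its level was 2359, 4970 and 7039 CPM (lowest, median and highest of 39 animals), and in Agt-positive nuclei 2123, 5654 and 8494 CPM. The ranges overlapped, but within animals 38 of 39 were higher in the Agt-positive state, by a log2 fold of 0.18 (SE 0.0187, adjusted p = 7.11e-19 by edgeR). Aqp4 was higher in 27 of 39 animals (log2 fold 0.16, SE 0.0343, adjusted p = 0.000346) and Slc7a11 in 32 of 39 (log2 fold 0.13, SE 0.029, adjusted p = 0.000941). Ntsr2 passed narrowly, with 26 of 39 animals higher (log2 fold 0.09, SE 0.0272, adjusted p = 0.0489). It did not pass in the 34 animals that were not in the 1000 UMI fit (adjusted p = 0.216), where Gja1, Aqp4 and Slc7a11 did. The glutamate transporters did not pass, with log2 folds of 0.03 for Slc1a2 (SE 0.0138, adjusted p = 0.269) and 0.04 for Slc1a3 (SE 0.0154, adjusted p = 0.152). Slc7a10 was the only one below 0, at -0.07 (SE 0.0246, adjusted p = 0.0827), and was lower in 26 of 39 animals. Its sign was not stable: with doublets kept it was 0.48 at 1000 UMIs (32 animals, adjusted p = 2.35e-09 by edgeR). That setting clustered the nuclei anew and called 467 of 711 tested genes, so its fold is not directly comparable with the others. Without female mate 1 or female mate 2 the fold of Slc7a10 was also above 0 at that depth.

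By the number of Agt UMIs in a nucleus, in the 37 animals with at least 20 nuclei at each number, the Gja1 mean was 4716, 5049, 5271 and 5662 CPM at 0, 1, 2 and 3 or more. Aqp4 stood at 1054, 1066, 1188 and 1312 CPM. Slc7a11 stood at 1557, 1614, 1749 and 1719 CPM, so its highest mean was at 2 UMIs. Slc7a10 had its highest mean at 0 UMIs, with 2388, 2356, 2258 and 2191 CPM. The SDs, from 1078 to 1242 CPM for Gja1, are between animals. The steps are within the same animals, so these SDs do not measure their spread, and the steps were not tested.

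**Figure D4:**
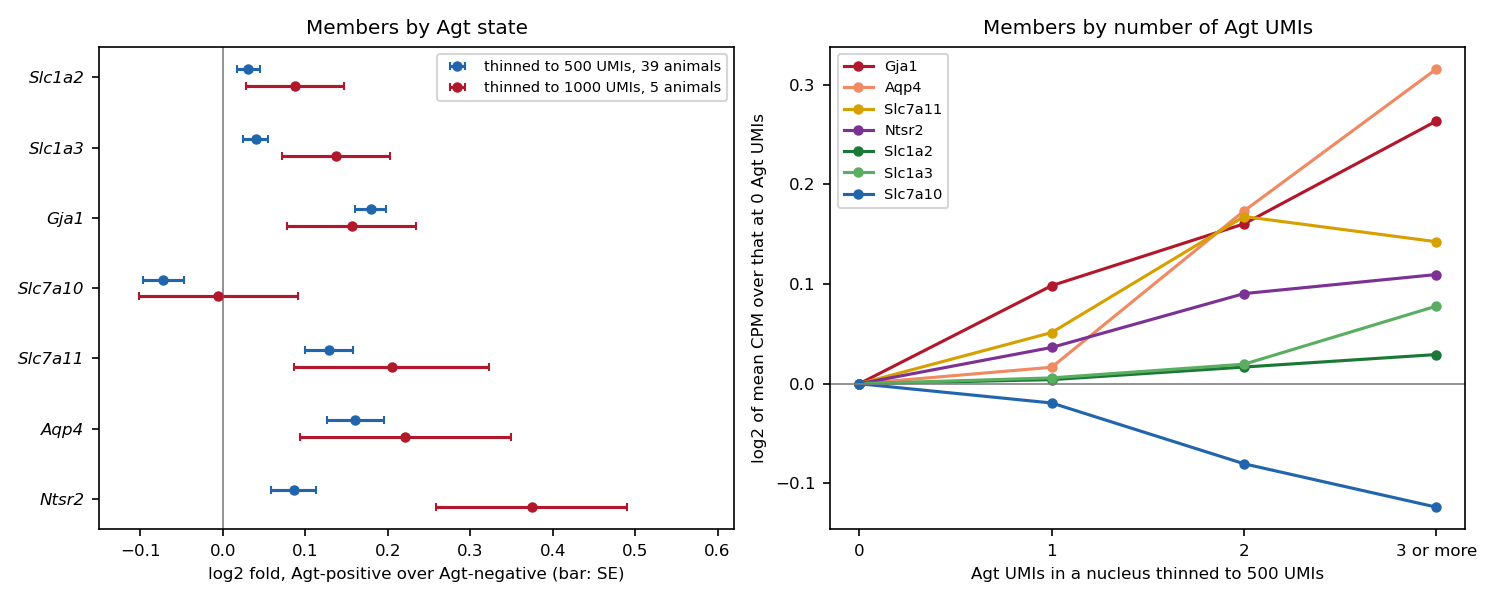
Left, log2 fold (Agt-positive over Agt-negative astrocyte-like nuclei, with SE) of 7 genes at 500 UMIs (39 animals) and 1000 UMIs (5 animals). Right, log2 of the mean CPM over that at 0 Agt UMIs, by the number of Agt UMIs per nucleus (37 animals). Gja1 and Aqp4 lie above 0 at both depths and are highest at 3 or more Agt UMIs, and Slc7a10 is below 0 at both depths, within its SE at 1000 UMIs, where its sign turned without female mate 1 or 2 and with doublets kept.

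Other genes that differed at 500 UMIs, taken among those with the same sign in at least 90% of animals, were Apoe, Sparcl1 and Plpp3, all higher. Apoe stood at 12122 CPM ± 3649 in Agt-positive and 10031 CPM ± 3110 in Agt-negative nuclei, higher in 38 of 39 animals (log2 fold 0.29, SE 0.0149, adjusted p = 1.67e-80 by edgeR). Sparcl1 and Plpp3, a lipid phosphatase that was among the markers used to name the class, were each higher in 36 of 39 (log2 fold 0.16 for both). No gene lower in Agt-positive nuclei met that rule. Of the other markers used to name the class, Aldoc was called higher (log2 fold 0.18, adjusted p = 0.0125 by edgeR). Acsbg1, also such a marker, was called lower (log2 fold -0.20, adjusted p = 0.0234 by edgeR), in 25 of 39 animals. In the lists of related genes, 3 of 11 tested genes of gap junction, potassium, water and sodium rose and 0 fell: Gjb6 (connexin 30, 0.18), Mlc1, a membrane protein of the endfeet (0.21), and Atp1b2, a subunit of the sodium pump (0.11). Of the astrocyte receptors, 2 of 5 tested rose, the endothelin receptor Ednrb (0.24) and the sphingosine phosphate receptor S1pr1 (0.11), and 0 fell. One gene rose in each of 2 further lists, Id3 (0.38) of 4 in filaments and reactive genes and Mfge8 (0.15) of 2 telencephalic genes, with 0 fallen. The 2 tested genes each of glutathione, of angiotensin and neurotensin, and of other regions gave 0 calls. Over all genes tested 2.65% were higher and 0.68% lower. The share among genes as abundant as those listed was not counted, so these counts are not read as a result about the lists. Among 10 neuronal genes 3 were tested, with 0 called. Their summed level had medians of 989 CPM in Agt-positive and 1014 CPM in Agt-negative nuclei and was higher in the former in 19 of 39 animals. The median log2 folds were 0.09 for gap junction, potassium, water and sodium, 0.11 for the receptors and 0.03 for the 11 tested genes of amino acid transport and metabolism, against -0.01 over all genes tested.

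Gfap splits the same nuclei differently. At 1000 UMIs 186 of 3341 nuclei (5.57%) held a Gfap UMI and 0 animals had 20 nuclei in both states, so no test could be run. At 500 UMIs 541 of 18309 nuclei (2.95%) were Gfap-positive, and 8 animals entered the fit. It called 15 of 2821 genes (0.532%), 2 higher (0.0709%) and 13 lower (0.461%). The median log2 fold of all genes tested was -0.13, and -0.03 by DESeq2. DESeq2 also called 15 genes, but a partly different set, with 9 higher and 6 lower. Only 7 were called by both tools, 1 higher (Aqp4) and 6 lower. Among the 8 tested genes described here Aqp4 rose, and Slc7a10 and Slc1a3 fell. The share called among other genes as abundant was not counted, so the number of calls is not read as a result about these genes.

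Aqp4 stood at 639, 1028 and 1325 CPM (lowest, median and highest of 8 animals) in Gfap-negative nuclei and at 650, 2004 and 3014 CPM in Gfap-positive nuclei. The log2 fold was 0.79 (SE 0.131, adjusted p = 1.49e-06 by edgeR), and 7 of 8 animals were higher. The exception was male peer 9, with 932 CPM in negative and 650 CPM in positive nuclei. DESeq2 gave 0.91 (adjusted p = 0.000216). As a description of the spread, the log2 ratio per animal (10 CPM added) had a mean of 0.87 and an SD of 0.66 over the 8 animals. It was -0.51 (SD 0.35) for Slc7a10 and -0.33 (SD 0.29) for Slc1a3. Slc7a10 stood at 2179, 2403 and 2809 CPM in Gfap-negative and 1355, 1538 and 2477 CPM in Gfap-positive nuclei and was lower in 7 of 8 animals (log2 fold -0.56, SE 0.132, adjusted p = 0.00998, or 0.0323 by DESeq2). Slc1a3 was lower in 7 of 8 (log2 fold -0.44, SE 0.112, adjusted p = 0.0271 by edgeR) but not past the threshold by DESeq2 (-0.31, adjusted p = 0.0737). Agt had a log2 fold of 0.22 (SE 0.115, adjusted p = 0.596), with 7 of 8 animals higher. Without thinning, in 14 animals, it was 0.50 (adjusted p = 4.59e-09), where positive and negative nuclei had median depths of 814.5 and 775 UMIs. Slc1a2 (-0.24), Ntsr2 (-0.21), Slc7a11 (-0.17) and Gja1 (-0.06) were not called.

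Among the genes called in the Gfap split, the largest log2 fold was that of Id3, a transcriptional regulator of the inhibitor of DNA binding family. It stood at 38.5, 65.3 and 107 CPM in Gfap-negative and 143, 338 and 765 CPM in Gfap-positive nuclei, which did not overlap, from 42 UMIs in the latter. All 8 animals were higher (log2 fold 2.20, SE 0.308, adjusted p = 2.60e-09 by edgeR). Id3 passed the low-count filter only through the Gfap-positive nuclei, where it was high, so these values are given as a description. Genes lower in all 8 animals were Gabbr1, a subunit of the GABA-B receptor (-1.0), Fetub (-0.84), Syne1, a nuclear envelope protein (-0.74), Sat1, an enzyme of polyamine catabolism (-0.67), Cyp46a1, the cholesterol 24-hydroxylase (-0.64), and Htra1, a secreted protease (-0.46). DESeq2 also called Fetub, Syne1, Cyp46a1 and Htra1. It did not call Sat1 (adjusted p = 0.0816) and gave no adjusted p for Id3 and Gabbr1, with log2 folds of 2.43 and -0.93. Of the lists, filaments and reactive genes had 1 of 4 tested genes higher (Id3, with the limit given above). Astrocyte receptors had 1 of 5 lower (Gabbr1), and the other 7 lists had 0 called. Over all genes tested 0.0709% were higher and 0.461% lower, and single calls in lists this small are not read as a result. Summed neuronal genes had medians of 958 and 937 CPM in the positive and negative state, and were higher in the positive state in 4 of 8 animals.

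**Figure D5:**
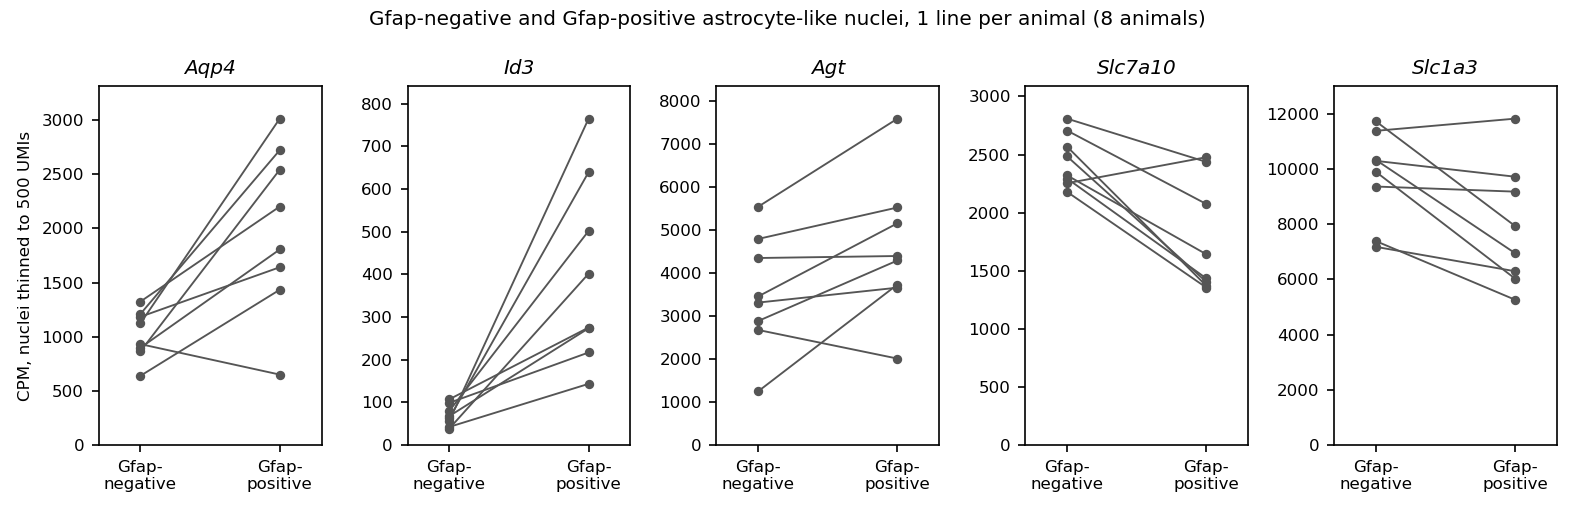
Levels (CPM, nuclei thinned to 500 UMIs, linear axes from 0) in Gfap-negative and Gfap-positive astrocyte-like nuclei, with 1 line per animal for 8 animals. Aqp4 is higher in the positive state in 7 of 8 lines and Id3 in all 8, and Slc7a10 and Slc1a3 are lower in 7 of 8. Id3 passed the low-count filter only through the positive state.

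Splits by the other genes, at 500 UMIs and given as descriptions, gave lower Gfap with Slc7a10 and higher Gfap with Aqp4 and Agt. In Slc7a10-positive nuclei Gfap was 68.3 CPM against 150 CPM in Slc7a10-negative nuclei, and it was higher in the positive state in 4 of 39 animals. In Aqp4-positive nuclei Gfap was 146 CPM against 62.3 CPM, higher in 34 of 39 animals. In Agt-positive nuclei Gfap was 107 CPM against 71.4 CPM, higher in 29 of 39. By 0, 1, 2 and 3 or more Agt UMIs its means were 72.4, 86.6, 99.6 and 164 CPM in 37 animals. The medians were 58.8, 50, 85.1 and 125 CPM in the same order. At 3 or more the SD was 262 CPM and the highest animal stood at 1636 CPM. Agt was 3261 CPM in Aqp4-positive and 2952 CPM in Aqp4-negative nuclei (higher in 30 of 39), and 3007 against 3207 CPM in Slc7a10-positive and Slc7a10-negative nuclei (higher in 12 of 39). Slc7a11-positive nuclei held more Gja1 than Slc7a11-negative ones in 33 of 39 animals and more Agt in 32 of 39, while Aqp4 was higher in 22 of 39. Splits by Ntsr2 moved the other genes little, with mean log2 ratios between 0.03 and 0.07. Slc1a2 was detected in 99.9% of astrocyte-like nuclei before thinning and could not be used as a split.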

How the data were processed

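Per the file headers and the submitters' processing notes, the deposited matrices hold whole UMI counts, made by the authors with Cell Ranger 3.1.0 and not normalized. The genome build, annotation and barcode selection are not given in the sources used here. Barcodes below 500 UMIs or above 5% mitochondrial UMIs were dropped, and 7608 doublets called by simulation, at an assumed rate of 0.8% per 1000 barcodes, were removed. Leiden clustering (igraph 0.11.9, 2000 variable genes without the genes described, 30 components, 15 neighbours, resolution 1) was named from 17 marker lists (pseudocount 5 CPM), by rules chosen with the data at hand. Counts were summed per animal and tested with edgeR 4.0.16 (TMM, its low-count filter, group means, or animal as a block in the splits; adjusted p under 0.05). DESeq2 1.42.0 was an alternative, beside other depths, filters, sets of nuclei and animals left out; its fits at 500 UMIs, and those there with animals left out, were chosen after seeing the data. Tests were checked on simulated data. Shares and correlations used 100000 permutations, within the other factor's levels for shares; for the interaction the average pairing difference was removed first. Similarity, and the background of correlations (added after seeing the data), used log2(CPM + 1). Split genes are named if called, of at least 50 CPM and of 1 sign in 90% of animals, up to 8 per direction; in lists, the called genes. The genes and lists were chosen with earlier results of these data known. Totals per library were 2921840 to 13009456 UMIs in kept nuclei; SDs between animals include counting error. The calls of the amino acid transport and metabolism list in the Agt split at 500 UMIs are not reported here.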

Additional observations from a re-analysis of the deposited data

Results flagged for a closer look

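In astrocyte-like nuclei the median depth of male mate 3, 1125 UMIs, was far above that of the other male mates, of which the next had 872. It was the only value so far from its group among 39 sets of gene levels and library measures searched in groups of 8 to 10 animals, where chance alone marks about 5% of sets. The 11 female mates were outside that group size. The highest median depth was 1191 UMIs in female peers and 1075 UMIs in female mates, so 1125 UMIs was not extreme over all animals. The whole library of male mate 3 also had the highest median, 2165 UMIs per nucleus.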

How the results depend on the processing

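Counts of genes called for pairing, sex and interaction kept their size under every alternative run (sex: 2, or 3 without a filter on low counts), as did the number of correlations (9 to 11). The correlated pairs were not all the same. By rho, Slc1a2 and Slc1a3 each passed with Ntsr2, and the pairs with Aqp4 did not pass. Without the 2 farthest animals Slc7a11 passed with Agt and Slc1a3, and Slc7a10 with Slc1a2. With group means subtracted, Slc7a10 passed with Slc1a2 and Slc1a3. The count of the Agt split, 4 at 1000 UMIs, depended on depth and animals. It was 93 at 500 UMIs, 72 there with DESeq2, 72 there without the 5 animals of the 1000 UMI fit (both settings chosen after seeing the data), and 131 without thinning. It was 467 of 711 tested genes with doublets kept (237 higher, 230 lower, 32 animals), where the nuclei were clustered anew. It was 0 with DESeq2, with the genes described among the variable genes, or without the animal block. Leaving out 1 animal gave 0 to 4. Leaving out male mate 2 tests nothing in any of these fits, since it had too few nuclei to enter. Asking for at least 50 nuclei per animal kept the same 39 animals for pairing, sex and interaction, so it tests nothing either. The Gfap split called 15 at 500 UMIs and 92 without thinning (63 higher, 29 lower, 14 animals). Thinning to 2000 UMIs left 66 nuclei, and neither split could be fitted there.

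Of single log2 folds under an alternative, 289 kept direction and side of the threshold, 27 gained a call, 2 lost one and 14 reversed, of which only Slc7a10 with doublets kept passed. The 289 include folds from the settings that left the same animals in the fit and so could not change. With doublets kept, Slc7a10 was -0.0618 for pairing and 0.484 in the Agt split (adjusted p = 2.35e-09), Ntsr2 was -0.0102 for sex, and the Slc1a2 level was 11410 CPM. Without female peer 1 and male peer 1, Ntsr2 was -0.0435 for sex and 0.0769 for the interaction, and Aqp4 0.00311 for the interaction. In the Agt split Slc1a2 was -0.0216 at 2 or more Agt UMIs. Leaving out 1 animal gave -0.0112 (female mate 2) to 0.127 for Slc1a2 and -0.118 to 0.0771 (female mate 1) for Slc7a10, with 0.025 without female mate 2. Slc7a10 was 0.163 without a filter, where the median of all genes was 0.21. In the Gfap split Gja1 was 0.149 without thinning and 0.0679 with DESeq2, and Slc7a11 0.0771 without thinning. The causes were not tested. No paired analysis was possible because animals of different groups share only a number given here as a name; the splits, within animals, had the animal as a block. Only 3341 of 18309 astrocyte-like nuclei reached 1000 UMIs, which limits the splits, and Gfap rests on 1465 UMIs in 39 animals.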
